A study of Mus musculus with 8 samples.

Results

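The miR-17-92 and miR-106b-25 clusters were followed through the mature miRNAs named for them, 10 of the 1915 mature names measured in each library. Of these, 6 belong to miR-17-92 (mmu-miR-17-5p, mmu-miR-18a-5p, mmu-miR-19a-3p, mmu-miR-20a-5p, mmu-miR-19b-3p and mmu-miR-92a-3p) and 4 to miR-106b-25 (mmu-miR-106b-5p, mmu-miR-106b-3p, mmu-miR-93-5p and mmu-miR-25-3p). The prefix mmu, for mouse, is left out below. They were chosen by name, though with earlier results of these data known. The libraries hold small RNA of prefrontal cortex from 12-week-old C57BL/6 mice: 4 of Fkbp5 knockout mice, numbered 1, 2, 4 and 5, and 4 of wild type mice, numbered 1 to 4. The Fkbp5 protein joins Hsp90 in complexes with the glucocorticoid receptor and makes the receptor bind hormone less tightly. How the knockout allele was made, the sex of the mice and whether each library is a separate animal are not given in the sources used here, and the p-values cover no more than the spread among these libraries, which may be technical. The assay reads small RNA, so the loss of Fkbp5 messenger RNA was not checked.

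Each cluster is transcribed as 1 long precursor from which Drosha and Dicer cut several hairpins and then duplexes of a 5p and a 3p strand. The strand loaded into Argonaute represses messenger RNAs that pair with its seed, the bases 2 to 8. miR-17-92 is known as an oncogenic cluster and for its place in neural progenitors and adult neurogenesis, where its loss has been tied to glucocorticoid signalling. In rat, miR-18a represses the glucocorticoid receptor gene Nr3c1. Of the other members, the miR-17 group represses the cell cycle inhibitor Cdkn1a. miR-106b-25 lies in an intron of Mcm7, a gene of the DNA replication helicase.

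Mature sequences of all 10 members were found in RefSeq (GRCm38.p6). They are shown 5′ to 3′ because they place the members in 5 seed groups that cut across the clusters, with the seed in capitals. The AAAGUGC seed is shared by 2 members of each cluster, and the AUUGCAC seed by 1 member of each.
miR-17-5p: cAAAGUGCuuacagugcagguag
miR-20a-5p: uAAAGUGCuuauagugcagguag
miR-106b-5p: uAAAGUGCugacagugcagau
miR-93-5p: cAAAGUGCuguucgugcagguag
miR-18a-5p: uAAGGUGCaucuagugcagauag
miR-19a-3p: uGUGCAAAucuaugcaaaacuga
miR-19b-3p: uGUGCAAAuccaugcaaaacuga
miR-92a-3p: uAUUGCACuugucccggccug
miR-25-3p: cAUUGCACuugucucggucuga
miR-106b-3p: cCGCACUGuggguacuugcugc

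Some members are nearly identical, so the counting could have given reads of a member to another or counted them under both names. Their values carry that uncertainty. Counted from 1 at the 5′ end, miR-17-5p differs from miR-20a-5p by C1U and C12U, and miR-19a-3p from miR-19b-3p by U11C alone. Over 21 shared positions miR-92a-3p differs from miR-25-3p by U1C, C14U and C18U. The mature forms of miR-19b-3p and miR-92a-3p are each made by 2 hairpins with the same mature sequence, on chromosome 14 and on the X chromosome, and cannot be assigned to either.

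On GRCm38, the 6 hairpins of miR-17-92 span 836 bases of chromosome 14, from Mir17 (115043671 to 115043754, plus strand) to Mir92-1 (115044427 to 115044506). All 6 overlap an exon of the non-coding host gene Mir17hg. The 3 hairpins of miR-106b-25 span 498 bases of chromosome 5 on the minus strand: Mir106b (138165737 to 138165818), Mir93 (138165523 to 138165610) and Mir25 (138165321 to 138165404). All lie within Mcm7, each in an intron of 2 annotated transcripts, while Mir93 and Mir25 also overlap an exon of 1 other transcript.

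The deposited values of a library summed to between 17728879 and 19776148 in the knockout and between 16180699 and 21555993 in wild type. Values below were rescaled between libraries by factors from 0.838 to 1.21. The libraries carried the neuronal miRNAs of the labelled tissue: miR-128-3p, miR-9-5p, miR-124-3p and miR-137-3p summed to between 6395530 and 8173710 in the knockout and between 6207910 and 8030390 in wild type. Of the 1915 names, 599 passed the filter on low values, a value of 10 in at least 4 libraries, and all 10 members were among them. miR-18a-5p passed by the least possible, reaching 10 only in knockout replicate 5 and wild type replicates 2, 3 and 4.

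The members of 1 precursor differed widely in level. In miR-17-92, miR-92a-3p made up 90.9 ± 1.13% of the cluster's sum in the knockout and 90.7 ± 1.07% in wild type (SD, n = 4 each), and its mean over the 8 libraries was 605-fold that of miR-18a-5p. In miR-106b-25 the span was 14.1-fold, with miR-25-3p at 61.7 ± 1.75% of the sum in the knockout and 63.4 ± 6.64% in wild type. How evenly these sequences were ligated and amplified was not tested, so their order describes the libraries and not the copies in the cell.

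The order of mean levels over the 8 libraries was miR-92a-3p, miR-25-3p, miR-93-5p, miR-106b-3p, miR-106b-5p, miR-19b-3p, miR-20a-5p, miR-17-5p, miR-19a-3p and miR-18a-5p. Several neighbours were close. miR-92a-3p was above miR-25-3p in 5 of 8 libraries and miR-106b-3p above miR-106b-5p in 5 of 8. miR-106b-5p was above miR-19b-3p in 6, miR-20a-5p above miR-17-5p in 7, and miR-19a-3p above miR-18a-5p in 6. The other steps held in all 8 libraries: miR-25-3p was 2.25-fold above miR-93-5p, miR-93-5p 5.72-fold above miR-106b-3p, miR-19b-3p 3.04-fold above miR-20a-5p and miR-17-5p 8.73-fold above miR-19a-3p. Among the 599 miRNAs, miR-92a-3p ranked 93 by mean level and miR-18a-5p 594.

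**Figure D1:**
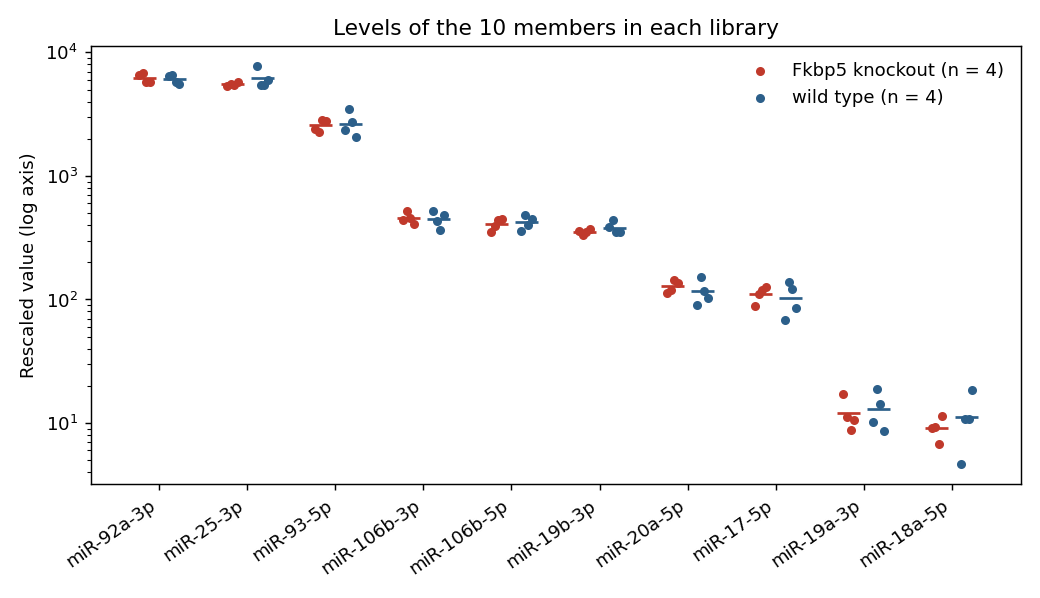
Rescaled value of each member (log axis) in 4 Fkbp5 knockout libraries (red, left) and 4 wild type libraries (blue, right); horizontal lines are group means. miR-92a-3p and miR-25-3p lie between 5305 and 7784, miR-19a-3p and miR-18a-5p between 4.64 and 19.0, and the genotypes overlap for every member.

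Set out along the precursor, the hairpin at the 3′ end gave the highest member in both clusters. In miR-17-92 the mean over 8 libraries was 107 for miR-17-5p at the start, 10.2 for miR-18a-5p and 12.5 for miR-19a-3p at 180 and 329 bases, 122 for miR-20a-5p at 486 bases, 368 for miR-19b-3p at 634 bases and 6139.7 for miR-92a-3p at 756 bases. In miR-106b-25 it was 416 and 454 for the 5p and 3p arms of miR-106b, 2609.6 for miR-93-5p at 208 bases and 5844 for miR-25-3p at 414 bases. miR-19b-3p and miR-92a-3p may include product of the X chromosome hairpins.

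**Figure D2:**
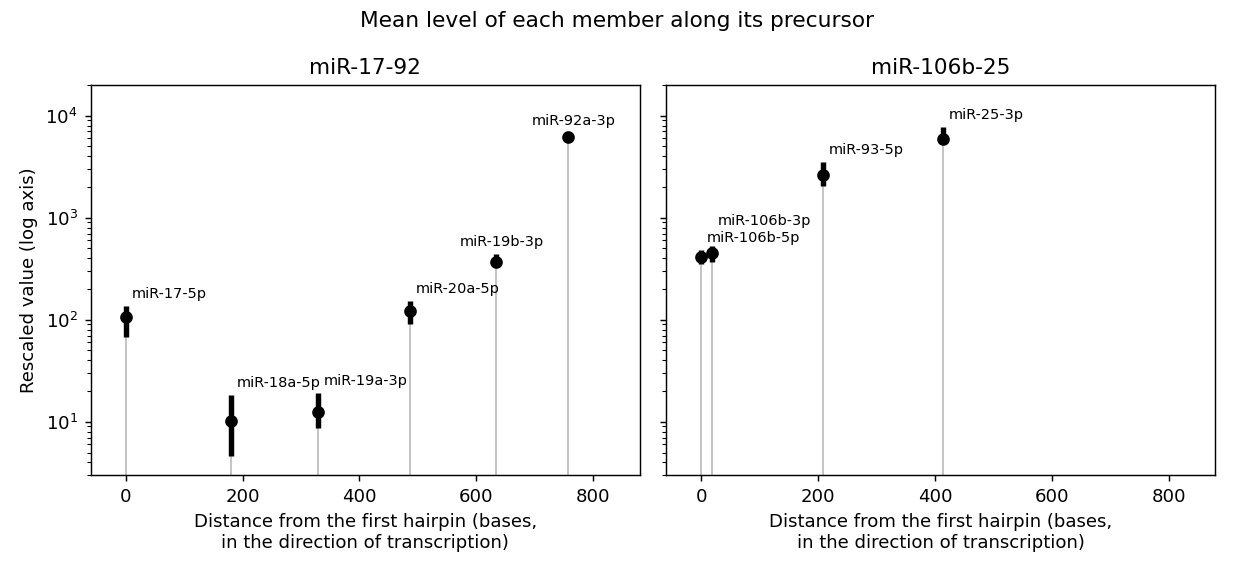
Mean rescaled value of each member over the 8 libraries (points, log axis) with the lowest and highest library (thick bars), against the distance of its hairpin from the first hairpin of the cluster in bases, in the direction of transcription. The 3p arm of miR-106b is drawn beside its 5p arm for legibility; the last hairpin carries the highest member in both clusters, 6139.7 for miR-92a-3p and 5844 for miR-25-3p.

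The genotype comparison asks whether these miRNAs differ when Fkbp5 is missing. No member passed the test: by limma with Benjamini-Hochberg adjustment over 599 miRNAs, 0 of 10 members had an adjusted p under 0.05, as did 0 of all 599 (0%). At an unadjusted p under 0.05 there were also 0 members, beside 25 of 599 (4.17%). The groups overlapped for all 10 members and did not overlap for 12 of 599 (2%), with the knockout higher for 4 (0.668%) and lower for 8 (1.34%). Mean log2 values were higher in the knockout for 4 members and lower for 6, with a median log2 fold change of -0.04, beside 321 higher, 278 lower and a median of 0.01 over all 599. The median absolute log2 fold change was 0.10 for the members and 0.11 for all. Fold changes here are on the log2(value + 1) scale, which understates those of low miRNAs.

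The precision of these comparisons differed with level. The 95% interval of the log2 fold change excluded a 2-fold difference for 10 of 10 members, beside 86.8% of the 599, and a 1.5-fold difference for 7 of 10, beside 57.8%. For miR-18a-5p the 2-fold bound was met only narrowly, at -0.997, and with no filter on low values its interval ran from -1.05 to 0.77 and reached it. The 3 members whose interval reached 1.5-fold were miR-17-5p, miR-18a-5p and miR-19a-3p.

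The AUUGCAC group, miR-92a-3p and miR-25-3p, held 74.3 ± 2.20% of the members' sum in the knockout and 74.6 ± 3.95% in wild type. mmu-miR-92a-3p, known for repressing the integrin gene Itga5 in endothelium, stood at 6513, 6785, 5728 and 5793 in knockout replicates 1, 2, 4 and 5, against 6463, 6503, 5749 and 5583 in wild type replicates 1 to 4. In both genotypes replicates 1 and 2 were above the other libraries, and the groups overlapped. Its log2 fold change was 0.03 ± 0.11 (SE; limma adjusted p = 0.999). mmu-miR-25-3p, which represses the pro-apoptotic gene Bcl2l11, stood at 5305, 5534, 5441 and 5797 in the knockout, against 7784, 5489.7, 5405 and 5998 in wild type. Wild type replicate 1 was the highest of the 8 libraries and the other 3 wild type libraries lay within or just above the knockout range. The log2 fold change was -0.15 ± 0.13 (limma adjusted p = 0.999), and -0.02 without wild type replicate 1.

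The AAAGUGC group, miRNAs that act on Cdkn1a and on E2f1, held 20.4 ± 2.30% of the members' sum in the knockout and 20.1 ± 4.03% in wild type. Its most abundant member, mmu-miR-93-5p, stood at 2401, 2262, 2819 and 2773 in knockout replicates 1, 2, 4 and 5, against 2357, 3478, 2729 and 2058 in wild type replicates 1 to 4. All knockout values fell inside the wild type range, and the log2 fold change was -0.03 ± 0.16 (limma adjusted p = 0.999). miR-106b-5p stood at 354, 391.8, 439.6 and 451 in the knockout and at 356, 485, 402 and 446 in wild type, a log2 fold change of -0.04 ± 0.14.

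The miR-17-92 members of this group were lower in level and more variable. miR-17-5p stood at 88.4, 111.5, 119.9 and 126.9 in the knockout, against 67.7, 138, 122 and 85.7 in wild type. Wild type replicate 1 was the lowest and wild type replicate 2 the highest of the 8 libraries. The log2 fold change was 0.15 ± 0.23 (limma adjusted p = 0.999), and it was -0.02 without wild type replicate 1. miR-20a-5p stood at 114, 119.7, 144 and 136 in the knockout, against 90.9, 153, 117 and 103 in wild type, with the same libraries at the ends. Its log2 fold change was 0.16 ± 0.18 (limma adjusted p = 0.999), and leaving out wild type replicate 1 gave 0.06, while leaving out wild type replicate 2 gave 0.31.

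In the GUGCAAA group, miR-19b has been tied to the stress response through the adrenergic receptor gene Adrb1. miR-19b-3p stood at 357, 336, 351 and 371 in the knockout, against 384, 441, 354 and 349 in wild type. Wild type replicates 1 and 2 were above every knockout library, and wild type replicates 3 and 4 were within the knockout range. The log2 fold change was -0.11 ± 0.13 (limma adjusted p = 0.999). miR-19a-3p, which differs from it by 1 base, stood at 17.2, 11.3, 8.77 and 10.6 in the knockout and at 10.2, 19.0, 14.3 and 8.68 in wild type, with a log2 fold change of -0.10 ± 0.33.

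miR-18a-5p, the member that represses Nr3c1, was the lowest of the 10. It stood at 9.19, 9.21, 6.82 and 11.5 in the knockout, against 4.64, 10.7, 10.7 and 18.5 in wild type. Both ends of the range were wild type libraries, replicate 1 and replicate 4. The log2 fold change was -0.14 ± 0.39 (limma adjusted p = 0.999), with a 95% interval from -0.997 to 0.71. It was 0.12 without wild type replicate 4.

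**Figure D3:**
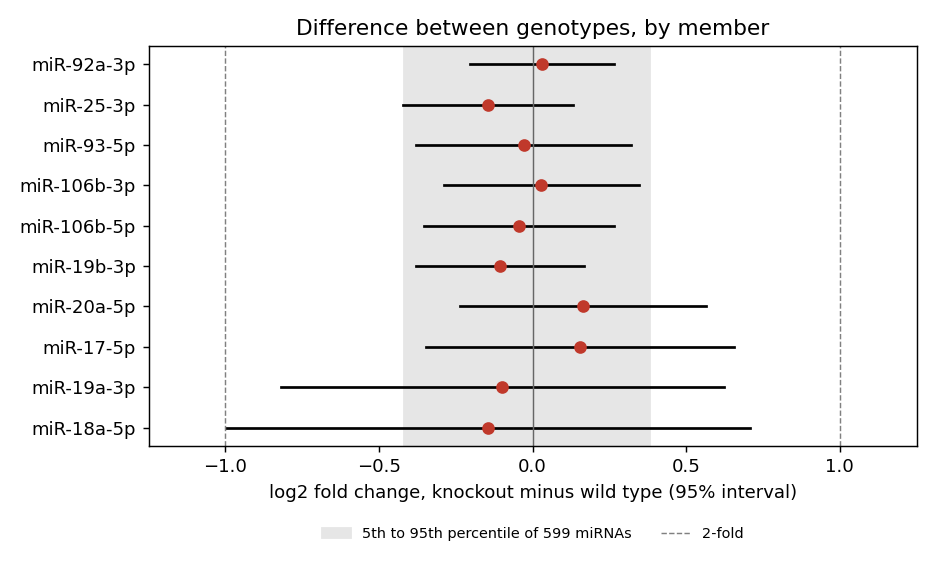
log2 fold change of each member, knockout minus wild type (red points), with its 95% interval from limma (lines); the grey band runs from the 5th to the 95th percentile of all 599 miRNAs, -0.42 to 0.38. All 10 points lie inside the band, and the widest intervals belong to miR-18a-5p and miR-19a-3p.

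Summed over members, miR-17-92 stood at 7099, 7372, 6359 and 6449 in the knockout, against 7021, 7265, 6367 and 6148 in wild type. The mean of 6819.7 ± 494 in the knockout and that of 6700.3 ± 528 in wild type (SD, n = 4 each) differed by less than the spread. miR-106b-25 stood at 8499.9 to 9429.8 in the knockout (mean 8949.5 ± 422) and at 8904 to 11022 in wild type (mean 9697 ± 988), where replicate 1 was highest. The log2 ratio of its mean sums, knockout over wild type, was -0.12, and -0.04 without wild type replicate 1. The ratio of the miR-106b-25 sum to the miR-17-92 sum was 1.32 ± 0.152 in the knockout and 1.45 ± 0.0917 in wild type, with overlapping groups. All 10 members together made up 0.0846 ± 0.00613% of each library in the knockout and 0.0868 ± 0.00816% in wild type. No test was run on these sums.

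Both strands of the miR-106b hairpin count among the members, and both were abundant. Its precursor (chromosome 5, 138165737 to 138165818, minus strand, RefSeq GRCm38.p6) is shown to place the 5p strand and then the 3p strand, in capitals.
Mir106b: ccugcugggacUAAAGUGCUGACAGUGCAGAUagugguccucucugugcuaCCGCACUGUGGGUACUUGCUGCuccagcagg
miR-106b-3p stood at 439.8, 522, 460.05 and 408 in knockout replicates 1, 2, 4 and 5, against 524, 429, 368 and 481 in wild type replicates 1 to 4. The groups overlapped, and the log2 fold change was 0.03 ± 0.14 (limma adjusted p = 0.999).

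The 5p strand made up 44.6, 42.9, 48.9 and 52.5% of both strands of miR-106b in the knockout, against 40.5, 53.1, 52.2 and 48.1% in wild type. Which strand was the more abundant thus varied between libraries of both genotypes. The other hairpins of the cluster were one-sided: the 5p strand was 95.8 ± 0.819% of miR-93 in the knockout and 96.3 ± 0.604% in wild type, and 0.591 ± 0.224% of miR-25 in the knockout and 0.545 ± 0.104% in wild type. By limma over 141 hairpins, 0 arm ratios had an adjusted p under 0.05 (0%). At an unadjusted p under 0.05 there were 3 (2.13%), none of them miR-106b, miR-93 or miR-25. No hairpin of the other cluster was tested, since none had both arms averaging 20 or more. Of these untested hairpins, miR-17 had a 5p share of 85.5 ± 3.75% in the knockout and 86.3 ± 5.59% in wild type. The log2 change of the 5p to 3p ratio was -0.07 ± 0.21 for miR-106b, -0.17 ± 0.20 for miR-93 and 0.06 ± 0.26 for miR-25 (limma adjusted p = 0.973 each).

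The remaining strands of the member hairpins were mostly scarce, though some averaged above the members miR-19a-3p and miR-18a-5p. Of 8 such strands, 3 passed the filter: miR-93-3p averaged 109.6 ± 12.1 in the knockout and 99.3 ± 12.5 in wild type, miR-25-5p 32.5 ± 11.3 in the knockout and 34.0 ± 9.42 in wild type, and miR-17-3p 18.4 ± 3.05 in the knockout and 15.4 ± 5.10 in wild type. Their log2 fold changes were 0.14 ± 0.16, -0.08 ± 0.29 and 0.28 ± 0.28 (limma adjusted p = 0.999 each). miR-18a-3p ran from 1.95 to 8.18 in the knockout and from 0 to 6.50 in wild type, and miR-20a-3p reached 9.21 in the knockout and 3.30 in wild type. miR-92a-1-5p and miR-19b-1-5p, the partners of miR-92a-3p and miR-19b-3p on chromosome 14, reached at most 2.47 and 0.825, and miR-19a-5p was listed at 0 in every library.

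The paralogous cluster on the X chromosome, miR-106a to miR-363, was low here. Of its 10 strands named for that locus alone, 5 were listed at 0 in all 8 libraries and none passed the filter. miR-106a-5p, which differs from miR-17-5p by U10A, ran from 0 to 1.02 in the knockout and from 0 to 3.58 in wild type. miR-20b-5p, which differs from miR-17-5p by U10C and C12U, averaged 3.78 ± 1.03 in the knockout and 4.06 ± 1.07 in wild type. miR-363-3p, of the AUUGCAC seed, stood at 3.44, 3.07, 0.97 and 3.52 in knockout replicates 1, 2, 4 and 5, against 6.50, 8.25, 3.58 and 4.34 in wild type replicates 1 to 4.

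Every knockout value of miR-363-3p was below every wild type value, by little between knockout replicate 5 and wild type replicate 3. Summed over the 10 strands, the X chromosome products came to 8.04, 12.3, 6.82 and 7.93 in the knockout, against 20.4, 17.3, 13.1 and 14.1 in wild type. These groups did not overlap either, where 12 of the 599 tested miRNAs (2%) had groups that did not overlap. That share is of single miRNAs past the filter, and none was computed for sums or for miRNAs as low as these. Most of the sum in wild type replicate 1 came from the 2 arms of miR-363. miR-363-5p was at 1.15, 2.05, 0.97 and 0.88 in the knockout, against 9.28, 4.95, 0 and 1.09 in wild type, with overlapping groups. No test was run on the sum, which was picked out after its values were seen and rests on values of a few units. With no filter, the log2 fold change of miR-363-3p was -0.85 ± 0.46 (limma adjusted p = 0.930), which did not pass.

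Seeds could be compared only for the 1623 of 1915 measured names with a RefSeq mature sequence. Among these, outside both clusters and their X chromosome copy, 4 share a seed with a member, and their hairpins lie elsewhere in the genome. miR-92b-3p, of the AUUGCAC seed and known from neural progenitors, was abundant.
miR-92b-3p: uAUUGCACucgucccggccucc
It stood at 2648, 3220.2, 2661 and 2637 in the knockout, against 1985, 2259, 2651 and 2751 in wild type. Knockout replicate 2 was highest, and wild type replicates 1 and 2 were below every other library. The log2 fold change was 0.22 ± 0.13 (limma adjusted p = 0.999). miR-32-5p averaged 19.5 ± 7.60 in the knockout and 17.98 ± 4.51 in wild type, while miR-367-3p and miR-6383 were listed at 0 in every library.

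How the members varied together was described by the SD, over the 8 libraries, of the log2 ratio of each pair, a quantity that rescaling does not touch. The 8 members with a mean of at least 50 gave 28 pairs that share the same libraries, and no test was run on them. Pairs that share a seed had a median SD of 0.20 (7 pairs, 0.15 to 0.26). Pairs of the same cluster with different seeds had a median of 0.28 (10 pairs, 0.14 to 0.39), and pairs differing in both had 0.24 (11 pairs, 0.16 to 0.50). The order of the last 2 medians was not stable: it turned without wild type replicate 1 (0.22 within clusters and 0.23 between) and over all 10 members (0.37 within and 0.40 between).

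miR-20a-5p and miR-93-5p, from chromosomes 14 and 5, had an SD of 0.15, and their ratio was 0.0473, 0.0529, 0.0512 and 0.0489 in knockout replicates 1, 2, 4 and 5, against 0.0386, 0.0441, 0.0429 and 0.0501 in wild type replicates 1 to 4. Wild type replicate 4 lay within the knockout range and the other wild type libraries below it. miR-93-5p and miR-25-3p, neighbours within Mcm7, had an SD of 0.34. Their ratio was 0.453, 0.409, 0.518 and 0.478 in the knockout, against 0.303, 0.633, 0.505 and 0.343 in wild type. Wild type replicate 2 was the highest and wild type replicates 1 and 4 the lowest, and the knockout libraries lay between them.

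The steadiest pair was miR-19b-3p with miR-92a-3p (SD 0.14), neighbours in miR-17-92 with different seeds. The least steady was miR-17-5p with miR-25-3p (SD 0.50). miR-106b-3p varied less against miR-92a-3p of the other cluster (0.16) and miR-25-3p (0.17) than against the 5p strand of its own hairpin (0.28). Whether base composition bears on these SDs was not tested. The G and C share was 39.1% in miR-19b-3p and 57.1% in miR-92a-3p, the steadiest pair. miR-25-3p at 50% lay within the 39.1 to 52.2% of the AAAGUGC group. miR-106b-3p had the highest share, 63.6%, and varied more against miR-20a-5p at 39.1% (SD 0.37) than against miR-92a-3p.

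**Figure D4:**
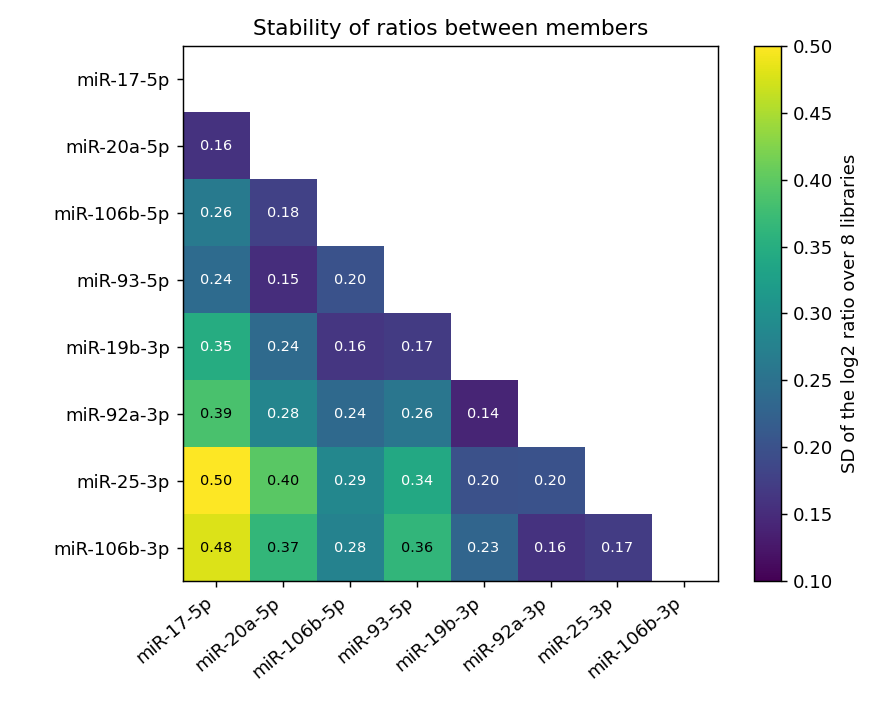
SD over the 8 libraries of the log2 ratio of each pair among the 8 members with a mean of at least 50; darker squares mark steadier ratios. Pairs within the AAAGUGC seed (upper left) run from 0.15 to 0.26, miR-19b-3p is steady against members of both clusters (0.14 with miR-92a-3p, 0.16 with miR-106b-5p), and miR-17-5p against miR-25-3p is at 0.50.

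Wild type replicates 1 and 2 stood at opposite ends for the AAAGUGC group. On average over its tested members, in log2 units from each member's own mean, the AAAGUGC group was at -0.34 in wild type replicate 1 and 0.35 in wild type replicate 2, and between -0.16 and 0.17 in the 4 knockout libraries. The AUUGCAC group was between -0.09 and 0.04 in the knockout, and in wild type it was highest in replicate 1, at 0.25, and lowest in replicate 3, at -0.097. Without wild type replicate 1 the median SD of the pairs was 0.15 within seeds, 0.22 within clusters with different seeds and 0.23 for pairs differing in both.

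**Figure D5:**
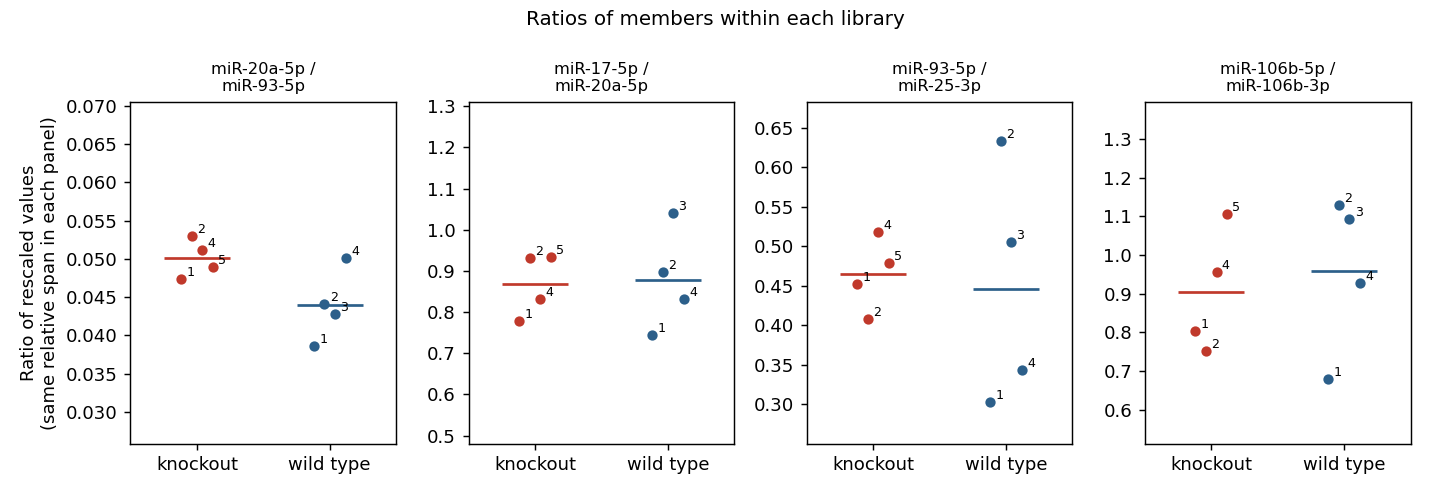
Ratio of rescaled values for 4 pairs of members within each library, knockout (red, left) and wild type (blue, right); numbers are replicates, lines are group means, and each axis covers the same relative span without starting at 0. The ratio of miR-93-5p to miR-25-3p runs from 0.303 to 0.633 in wild type, that of miR-20a-5p to miR-93-5p from 0.0386 to 0.0529 over all 8 libraries.

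Other miRNAs that lay nearest to the clusters over the 8 libraries were found by the root mean square distance between log2 deviations, among 556 miRNAs. For miR-17-92 these were miR-107-3p (0.08), miR-24-3p (0.09) and miR-194-5p (0.09), where the median of all was 0.29. For miR-106b-25 they were miR-370-5p (0.06), miR-26a-5p (0.06) and miR-376a-5p (0.07), with a median of 0.25. The mean deviation of miR-106b-25 itself ran only from -0.12 to 0.13, against -0.33 to 0.31 for miR-17-92. A miRNA that hardly varied would therefore also lie near miR-106b-25, and its distances do not show shared variation. Members weigh equally in these means, whatever their level. In miR-17-92 the scarce miR-18a-5p ran from -0.90 to 0.88, while miR-92a-3p spanned only 1.22-fold. How much the scarce members widened the range of miR-17-92 was not tested.

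Of 11 other miRNAs tied to the glucocorticoid receptor or stress, 10 were tested, and 0 passed the adjusted threshold by limma while 2 had an unadjusted p under 0.05, beside 4.17% of all 599. These 2, named after their values were seen, went opposite ways: miR-433-3p was at 0.36 ± 0.13 (limma adjusted p = 0.837), with groups that did not overlap, and miR-101a-3p at -0.33 ± 0.13 (limma adjusted p = 0.929). Over the 10, mean log2 values were higher in the knockout for 6 and lower for 4 (median 0.01). The most abundant were miR-124-3p, which also represses Nr3c1 (0.05 ± 0.15), miR-29a-3p (-0.02 ± 0.12), miR-16-5p (-0.06 ± 0.12) and miR-101a-3p. miR-511-5p, known as a repressor of Fkbp5, was too low to test, at 5.16 ± 3.76 in the knockout and 7.24 ± 1.91 in wild type.

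Red blood cells are rich in miR-92a, miR-25 and miR-93, so markers of other cells were read beside the members. The 4 red blood cell markers, led by miR-486a-5p, summed to 3954 to 5051 in the knockout and 3241 to 5459 in wild type, with 1 higher and 3 lower by mean log2 value. In wild type replicate 1, where miR-25-3p was at its highest, miR-486a-5p (2734) and miR-451a (297) were at their lowest of the 8 libraries. There miR-144-3p was at 11.1, in a range from 9.19 to 51.0 over the 8 libraries. miR-144-5p was at 199.5, above all knockout libraries (120.7 to 189). Leukocyte and microglia markers (5, with 3 higher) summed to 9239 to 13167 in the knockout and 8801 to 10691 in wild type. Most of that sum was miR-150-5p, with means of 10614 in the knockout and 9332 in wild type. The lower ones were miR-142a-5p (-0.37 ± 0.17) and miR-223-3p (-0.35 ± 0.29). Endothelial markers (2, both lower) summed to 17029.5 to 20015 in the knockout and 17455 to 24012 in wild type. Smooth muscle markers (2, both lower) summed to 38212 to 65553 in the knockout and 57768 to 76858 in wild type, and oligodendrocyte markers (3, all lower) to 11808 to 15144 in the knockout and 11715 to 18652 in wild type. By limma 0 of these 16 markers passed the adjusted threshold. At an unadjusted p under 0.05 there were 1 smooth muscle and 1 oligodendrocyte marker, beside 4.17% of all 599. These were miR-143-3p at -0.42 ± 0.16 (limma adjusted p = 0.911) and miR-219a-5p at -0.60 ± 0.21 (limma adjusted p = 0.837). miR-219a-5p ran from 21.4 to 30.8 in the knockout and from 34.6 to 50.3 in wild type. Its groups did not overlap, as for 2% of the 599, while those of the other oligodendrocyte markers did. The part of all these markers in the members' values was not tested.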

How the data were processed

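Per the labels' protocols, small RNA was enriched on columns, a NEXTflex kit was used for adapters and amplification, and gel-selected products were read on an Illumina instrument. Per the submitters' processing notes, cutadapt 1.11, Bowtie 1.1.2, HTSeq 0.6.1p1 and edgeR were used with build mm10; their settings are not given in the sources used here. Per the file headers the deposited values are normalized counts, 1 per mature miRNA and library, and they were handled as a score with no fixed unit because they are whole numbers with unequal totals. That form is also what raw read counts would have; which of these they are was not settled, so depth is not certain, no count model was run and no counting interval is given.

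Values were rescaled by an unweighted trimmed mean of log ratios (30% of ratios and 5% of levels trimmed at each end). A version weighted by inverse variance was computed first, and the unweighted one was adopted with both results seen, to follow earlier processing of these data. Tests took miRNAs with a sum of at least 15 and with 10 or more, after scaling to the median library total, in 4 libraries. They were run on log2(value + 1) with limma 3.58.1 in R 4.3.3, with the variance trended on level, and p-values were adjusted by Benjamini-Hochberg over all of them at 0.05. Hairpins whose arms each averaged 20 or more were tested likewise, without the trend, on log2 arm ratios with 0.5 added. Both procedures were tested on simulated data. Members, lists of cell markers and of glucocorticoid miRNAs, and tests were chosen with earlier results of these data known. Named miRNAs are the members, their other arms, X chromosome paralogs, seed sharers, up to 4 of the stress list and the 3 nearest per cluster. Positions come from GENCODE M21 on GRCm38, the assembly also called mm10. Alternatives were other scalings, filters and pseudocounts, a replicate block, and leaving out single libraries.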

Additional observations from a re-analysis of the deposited data

Results flagged for a closer look

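A single library stood far from the rest of its genotype in 3 of 84 sets of 4 values; chance gives about 1 in 20, here 4.2. Knockout replicate 2 stood apart for miR-92b-3p, at 3220.2, with the other knockout libraries at 2637 to 2661. Wild type replicate 4 stood apart for miR-26a-5p, at 1592000, with the others at 1731430 to 1755330. Wild type replicate 4 also stood apart in the ratio of miR-106b-5p to miR-93-5p, at 0.21677, with the others at 0.139 to 0.151.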

How the results depend on the processing

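Over 184 alternative values of the 10 members, 0 passed the adjusted threshold by limma (lowest adjusted p 0.856), and 0 members had an unadjusted p under 0.05 in any fit. The direction turned in 20. Under upper quartile scaling miR-106b-5p was at 0.014 and miR-93-5p at 0.028. In the 6 libraries numbered 1, 2 and 4, with and without a replicate block, miR-19a-3p was at 0.010 and miR-106b-3p at -0.0040. In those fits miR-18a-5p did not pass the filter, which left 9 members. Leaving out 1 library gave ranges of -0.024 to 0.31 for miR-17-5p, -0.46 to 0.12 for miR-18a-5p, -0.28 to 0.0895 for miR-19a-3p, -0.016 to 0.066 for miR-92a-3p, -0.12 to 0.026 for miR-106b-5p, -0.057 to 0.11 for miR-106b-3p, -0.15 to 0.11 for miR-93-5p, 0.06 to 0.31 for miR-20a-5p, -0.15 to -0.04 for miR-19b-3p and -0.20 to -0.02 for miR-25-3p. For the log2 ratio of summed levels it gave -0.02 to 0.07 for miR-17-92 and -0.16 to -0.04 for miR-106b-25. The arm ratio change ranged from -0.23 to 0.016 for miR-106b, -0.15 to 0.27 for miR-25 and -0.29 to -0.05 for miR-93. For miR-93 the ends came from leaving out knockout replicate 5 and wild type replicate 2. The lowest value came without wild type replicate 1 for miR-106b and without knockout replicate 1 for miR-25. miR-93 was at -0.34 with a replicate block. The members' median was lowest, -0.07, without knockout replicate 5 and highest, 0.05, without wild type replicate 2, and 0.021 under upper quartile scaling. Weighted trimmed mean scaling, also seen before the choice was made, gave 24 miRNAs at an unadjusted p under 0.05 and turned no member.

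The labels do not say that replicate numbers pair libraries. Deviations correlated at 0.065, -0.038 and 0.13 between libraries numbered 1, 2 and 4. Only knockout replicate 4 correlated best with the library of its own number in the other genotype. With a replicate block, 4 miRNAs passed the threshold (miR-183-5p, miR-200b-3p, miR-690 and miR-200c-3p), none of them a member, along with 1 arm ratio (9 unadjusted). The same 6 libraries without the block gave 0 miRNAs past the threshold. At an unadjusted p the block gave 45 and the 6 libraries without it 40. The count of 25 at an unadjusted p became 9 with no rescaling (the cause was not tested), 51 of 1330 with no filter and 14 of 323 with a stricter filter, which left 6 members. Leaving out 1 library gave 18 to 40, highest without wild type replicate 3, and 0 past the threshold. The 3 arm ratios unadjusted became 5 at a mean of at least 5, and 1 to 9 without 1 library (1 without knockout replicate 2, 5 without knockout replicate 1, 7 without wild type replicate 2 or 4, 9 without wild type replicate 3). None of those fits gave an arm ratio past the threshold.

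Chosen after seeing the data, pairs over all 10 members had a median SD of 0.37 within clusters and 0.40 outside them, and 0.20 within seeds. Without 1 library the medians ran from 0.155 to 0.22 within seeds, 0.22 to 0.31 within clusters and 0.23 to 0.26 outside. In wild type libraries alone 2 members changed place in the order, miR-25-3p and miR-92a-3p. If the values are reads, as their form allows, low counts limit miR-18a-5p, miR-19a-3p and the X chromosome miRNAs most.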
